A study of Mus musculus with 2 samples.

Results

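The nuclear-encoded subunits of the mitochondrial respiratory chain and of ATP synthase were described in polyadenylated RNA from mouse hippocampus. The rule for members used names and annotation and no measured value: symbols that begin with Nduf, Uqcr, Atp5 or Cox4 to Cox8, plus Sdha, Sdhb, Sdhc and Sdhd, with at least 1 protein_coding transcript and without Cox8b. The rule gave 93 of 55536 genes, under 92 symbols, since Atp5o has a second annotated record. The series holds 1 group of 2 libraries of hippocampus from B6NCrl (C57BL/6) mice aged 6 months, labelled biological replicates 1 and 2 and described as male, although the sex field reads not collected. There is no treatment, no genotype contrast and no control group. Each library began with 20 ng of RNA and was fragmented by Nextera tagmentation. The libraries carry different tissue sample identifiers and 1 shared donor identifier, and nothing in the labels says that they came from separate animals. The spread between them may therefore be technical. With 1 library against 1 library, no test of a difference is possible, and every ratio below has no replicate check.

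Oxidative phosphorylation runs in the inner mitochondrial membrane. Complexes I and II pass electrons from NADH and succinate to ubiquinone, complex III passes them to cytochrome c, complex IV passes them to oxygen, and complex V uses the proton gradient to make ATP. Apart from complex II, each complex joins nuclear-encoded subunits to a few encoded by mitochondrial DNA, and neurons depend on this pathway to pay for ion pumping at their membranes and synapses. Several complex IV subunits and the c subunit of ATP synthase come in paralogs, some of them known for expression in heart, skeletal muscle, lung or testis.

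Unless another source is named, values come from the gene tables of a first program (in the layout of RSEM), and transcript tables of a second program (in the layout of kallisto) were read beside them. The gene tables held 38921662 expected reads in replicate 1 and 39499350 in replicate 2. Both libraries held markers of excitatory neurons, interneurons, astrocytes, oligodendrocytes and microglia at 1 TPM (transcript abundance scaled for length and depth) or more, 4 of 4, 4 of 4, 5 of 5, 5 of 5 and 5 of 5. They differed in markers of the choroid plexus, the tissue that secretes cerebrospinal fluid. Its 8 markers summed to 15265 TPM in replicate 1 and 130.6 in replicate 2, and Ttr alone gave 14956 and 116.6 TPM. In bulk tissue, fewer cells of a type and less RNA per cell cannot be told apart.

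The members were among the most abundant messages of the tissue. Their summed level was 7.95% of all TPM in replicate 1 and 7.39% in replicate 2, or 7.67% ± 0.393 (SD, n = 2). They took 3.17% ± 0.0827 (SD, n = 2) of the expected reads. Their transcripts had a median annotated length of 680 bases, against 2389 bases over all 14078 genes with a mean of at least 50 expected reads. In both libraries, 90 of the 93 members reached 1 TPM, 76 reached 100 TPM and 25 reached 1000 TPM. The median member stood at 633 TPM, and the median of the 12480 protein-coding genes that reached 1 TPM in both at 13.2 TPM. Among the 100 protein-coding genes with the highest TPM, 18 were members, while 5 were among the 100 with the most reads. Over the 89 members with at least 50 reads, Spearman's rho between TPM and length was -0.59, with all points from the same libraries, and rho between reads and length was -0.04.

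Median levels of the structural subunits ran in the same order in both libraries: complex IV, V, III, I and II. Complex IV had a median of 1049 TPM in replicate 1 and 1059 in replicate 2 over 19 members. Complex V had 1019 and 883 TPM over 17 members, and complex III had 728 and 621 TPM over 8 members. Complex I had 597 and 562 TPM over 36 members, and the 4 subunits of complex II had 217 and 201 TPM. The neighbours IV and V, and III and I, were close in mean relative to the SD of their medians over the libraries. The means were 1054 and 951 TPM for IV and V, with SDs of 7.25 and 96.0 TPM, and 675 and 579 TPM for III and I, with SDs of 76.2 and 24.96 TPM. The complex IV median counts paralogs at or near 0: over members with at least 1 TPM in both libraries it was 1920 TPM, against 981 TPM for complex V, and these neighbours were then far apart.

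**Figure D1:**
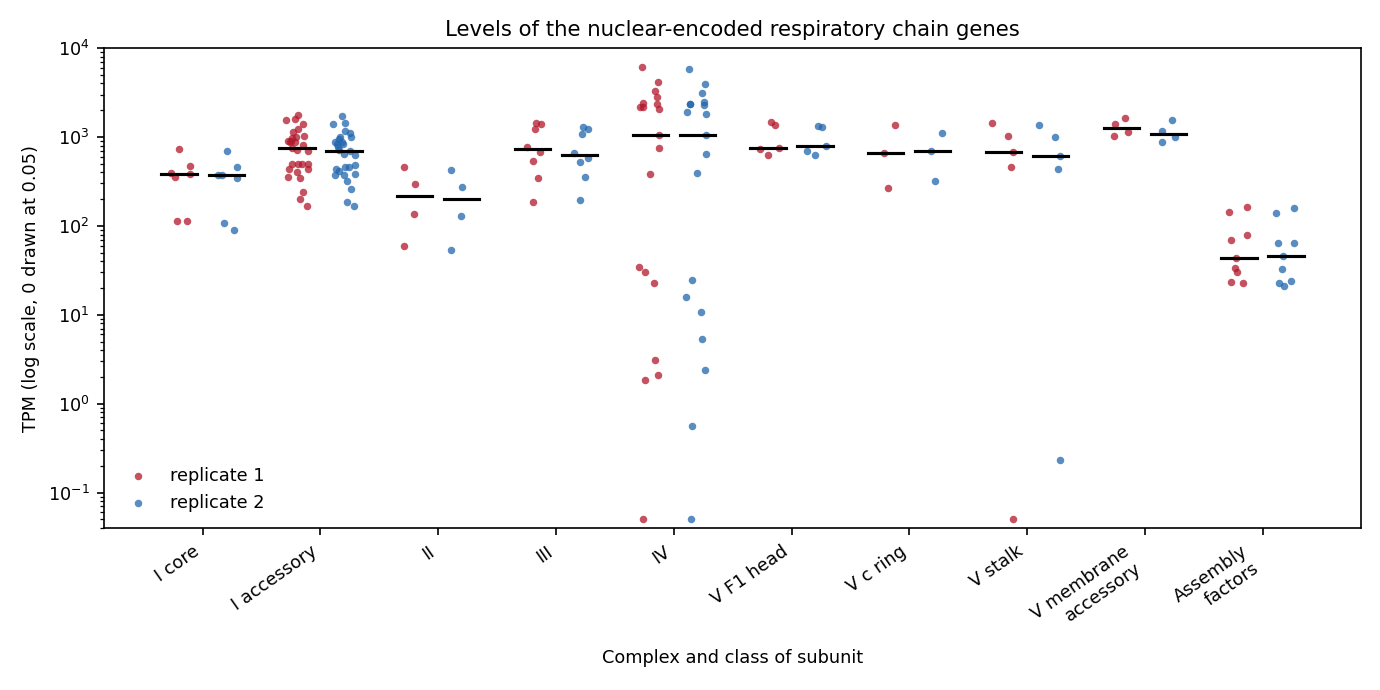
TPM of each member (points, log axis, a value of 0 drawn at 0.05) by complex and class of subunit, with replicate 1 left of replicate 2 and the median as a bar. The points of complex IV fall into an upper cloud and a lower one of paralogs at 34.1 TPM or less, while complex I reaches 1753 TPM.

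Complex I oxidises NADH. Its 7 nuclear-encoded core subunits, which carry the flavin, the iron-sulfur clusters and the quinone site, had medians of 381 and 370 TPM. The 29 accessory subunits, which surround that core, had medians of 754 and 703 TPM. The accessory subunits were also shorter, with a median annotated length of 624 bases, against 1157 bases for the core. Ndufb9, an accessory subunit of the membrane arm, had the highest mean, with 1596 TPM in replicate 1 and 1711 in replicate 2. Ndufc1 and Ndufa3, both small accessory subunits, followed with 1753 and 1427 TPM and with 1550 and 1396 TPM. The highest core subunit was Ndufs7, an iron-sulfur protein beside the quinone site, with 735 and 688 TPM. Ndufs1, the large iron-sulfur subunit of the NADH module, had 115 TPM in replicate 1 and 108 in replicate 2. Ndufv1, the FMN-binding subunit that takes electrons from NADH, had 357 and 370 TPM. A core subunit and an accessory one of the same complex could thus differ more than 10-fold in TPM in the same tissue. By expected reads the gap was smaller, with 26882 and 29897 for Ndufb9 and 7678 and 7104 for Ndufs1.

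Complex II oxidises succinate and is also an enzyme of the citric acid cycle. Its catalytic subunits were the higher pair: Sdhb, the iron-sulfur subunit, had 464 and 428 TPM, and Sdha, the flavoprotein, had 297 and 273 TPM. The membrane anchors were lower, with 136 and 129 TPM for Sdhd and 59.7 and 53.4 TPM for Sdhc. The 4 genes kept this order by TPM in both libraries. By expected reads Sdha led, with 24730 and 23319, against 14001 and 13314 for Sdhb.

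Complex III hands electrons to cytochrome c. Its small subunits stood highest by TPM: Uqcrq had 1449 and 1286 TPM, Uqcr10 had 1402 and 1238 TPM, and Uqcr11 had 1238 and 1068 TPM. Uqcrfs1, the Rieske iron-sulfur protein and the complex's nuclear-encoded catalytic subunit, had 348 and 356 TPM. Uqcrc2, one of the large core proteins on the matrix side, was the lowest, with 186 and 197 TPM. By expected reads Uqcrc1, the other large core protein, was the highest, with 24390 and 24282, against 15507 and 14453 for Uqcrq. All 5 small subunits were higher in replicate 1, by log2 ratios of 0.11 to 0.20.

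Complex IV reduces oxygen. Its 3 highest nuclear subunits were the 3 highest of all 93 members. Cox8a, a single-helix subunit (chr19:7215153-7217616, mm10), had 6127 TPM in replicate 1 and 5856 in replicate 2, rank 10 among protein-coding genes. Cox4i1, the subunit that takes part in control by ATP, had 4162 and 3985 TPM, and Cox6c had 3323 and 3127 TPM. Ndufa4, named for complex I but a subunit of complex IV, had 2813 and 2453 TPM. Placing it and Ndufa4l2 in complex I could not change the median of either complex. Ndufa4 lies above both medians and Ndufa4l2 below both.

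Complex V makes ATP. In its catalytic head, Atp5e (epsilon) had 1467 and 1337 TPM, Atp5b (beta) had 1371 and 1311 TPM, Atp5d (delta) had 751 and 799 TPM, Atp5a1 (alpha) had 740 and 700 TPM and Atp5c1 (gamma, the rotating shaft) had 635 and 632 TPM. The highest subunit was Atp5k, the membrane subunit e, with 1635 and 1539 TPM. Atp5h, of the peripheral stalk, had 1439 and 1354 TPM. The second record of Atp5o held no read in replicate 1 and 2.72 expected reads in replicate 2. It overlaps exons of the main Atp5o record, which encodes the stalk protein OSCP and had 679 and 604 TPM.

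By median, subunits from mitochondrial DNA stood higher than their nuclear partners in each complex that has them, with values on the same TPM scale. Single genes did not all follow. In complex I, mt-Nd4l had 35.4 TPM in replicate 1 and 12.9 in replicate 2, below every nuclear structural subunit. It is short (chrM:9877-10173) and overlaps mt-Nd4 (chrM:10167-11544), which had 2215 and 1734 TPM. How the programs divided reads between these 2 genes was not tested, so the level of mt-Nd4l is uncertain. In complex IV, the nuclear Cox8a lay above all 3 mitochondrial genes in both libraries. In complex V, mt-Atp6 and mt-Atp8 had a median of 19236 TPM in replicate 1 and 20027 in replicate 2, against nuclear medians of 1019 and 883 TPM. In complex IV the 3 mitochondrial genes had medians of 3361 and 2819 TPM, against 1049 and 1059 TPM. In complex I the 7 mitochondrial genes had medians of 1673 and 1328 TPM, against 597 and 562 TPM. In complex III, mt-Cytb had 1684 and 1544 TPM, against 728 and 621 TPM. The highest single genes by TPM were mt-Atp8, with 22051 and 23882 TPM, mt-Atp6, with 16420 and 16171 TPM, and mt-Nd1, with 9301 and 8196 TPM. By expected reads their order changed: mt-Atp8 had 44058 and 53168, mt-Atp6 had 265140 and 271200, and mt-Nd1 had 228420 and 207660. Summed over subunits on the TPM scale, nuclear genes stood higher in complexes I, III and IV but not in V. Nuclear genes of complex I gave 25356 TPM in replicate 1 and 23385 in replicate 2, against 17069 and 14345 TPM from mitochondrial genes. In complex V they gave 16055 and 14875 TPM, against 38471 and 40053 TPM. By expected reads, not divided by length, nuclear genes of complex I had 388024 and 377334 reads, against 437967 and 381162 from mitochondrial genes, so there the order depends on the scale. In complex V they had 304783 and 298640 reads, against 309203 and 324371. Mitochondrial transcripts overlap and lie on both strands, and the labels do not state whether counting used the strand. In complex V, mt-Atp8 (chrM:7766-7969) overlaps mt-Atp6 (chrM:7927-8607). Their median and summed TPM may therefore not count separate molecules.

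Assembly factors, which build the complexes without staying in them, were lower than most structural subunits, though 5 paralogs of complex IV (Cox7a1, Ndufa4l2, Cox4i2, Cox7b2 and Cox8c) lay below all of them in mean TPM. The 8 Ndufaf genes had medians of 56.1 and 54.9 TPM. Ndufaf8 was the highest, with 162 and 160 TPM, then Ndufaf3 with 143 and 140 TPM, Ndufaf2 with 78.1 and 63.9 TPM, Ndufaf7 with 69.1 and 64.1 TPM and Ndufaf5 with 43.2 and 45.9 TPM. Ndufaf1 had 33.2 and 32.5 TPM, Ndufaf4 had 22.9 and 23.8 TPM, and Ndufaf6 had 23.5 and 22.5 TPM. Atp5s, also called coupling factor B, had 30.2 and 21.1 TPM. Ndufaf8 and Ndufaf3 lay above the core subunit Ndufs1 in both libraries, and the other 6 Ndufaf genes lay below every structural subunit of complex I. A further list of 46 genes outside the name rule, made of assembly factors and of a few proteins that act on or stay in ATP synthase, had medians of 36.4 and 37.1 TPM. The highest of that list were Usmg5, a small ATP synthase protein, with 3377 and 2915 TPM, Atpif1, the inhibitor of ATP synthase, with 1356 and 1149 TPM, and Cox17, a copper chaperone, with 677 and 648 TPM.

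Other genes of the pathway were read beside the subunits. The 10 electron carriers and entry points had medians of 29.2 and 32.0 TPM. Their highest were Etfb and Etfa, the electron transfer flavoprotein, with 232 and 174 TPM and with 81.6 and 60.7 TPM, and Cycs, cytochrome c, with 79.9 and 78.7 TPM. The 13 citric acid cycle genes had medians of 166 and 164 TPM, led by Mdh2 (malate dehydrogenase) with 734 and 721 TPM, Idh3b with 313 and 312 TPM and Idh3a with 305 and 289 TPM. The 12 regulators of mitochondrial biogenesis had medians of 9.31 and 9.33 TPM. Slirp, an RNA-binding protein of mitochondrial messages, had 331 and 283 TPM, its partner Lrpprc had 19.0 and 17.9 TPM, and the mitochondrial RNA polymerase Polrmt had 12.6 and 15.9 TPM. Between the libraries, none of the genes compared in these 4 lists reached a 2-fold ratio, of 45, 9, 13 and 12 genes. Over all 14078 genes compared, 2.42% did, so few were to be found in lists of this size.

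In 6 of the 8 paralog families a single gene held 98.7% or more of the members' level, the form known for broad expression. Cox4i1 took 99.9% ± 0.00725 of the TPM of its pair (SD, n = 2). Cox4i2, the form known from lung that responds to low oxygen, had 2.10 TPM in replicate 1 and 2.42 in replicate 2, from 37 and 44 reads. Cox6a1 had 2204 and 2376 TPM, against 30.0 and 24.8 TPM for Cox6a2, the heart and skeletal muscle form, which took 1.19% ± 0.218 of the pair. Cox6b1 had 2043 and 1797 TPM, against 34.1 and 15.7 TPM for Cox6b2, the testis form, at 1.25% ± 0.547. Cox7b had 760 and 643 TPM, against 1.85 and 0.56 TPM for Cox7b2, from 22 and 7 reads. Cox8b, the heart and skeletal muscle form of subunit 8, is outside the rule and these shares. It had 100.5 TPM in replicate 1 and 2.05 in replicate 2. Cox8a's partner within the rule, Cox8c, known from testis, had 0 reads in both libraries. A count of 0 allows up to 3 reads a library, which covers counting error only. Ndufa4 took 99.8% ± 0.0751 of its pair, and Ndufa4l2, a form raised by low oxygen, had 3.06 and 5.28 TPM.

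The Cox7a family was shared more evenly. Cox7a2 had 2169 and 1926 TPM, which was 83.4% ± 0.938 of the family. Cox7a2l, also called SCAF1 and known for joining complexes III and IV into supercomplexes, had 388 and 391 TPM, or 15.9% ± 1.24. By expected reads it stood nearer to Cox7a2, with 10938 and 11347 reads, against 28248 and 25711 for Cox7a2. Cox7a1, the heart and skeletal muscle form, had 22.7 and 10.7 TPM, or 0.669% ± 0.298. Markers of skeletal and heart muscle were low in both libraries: the 7 genes summed to 6.02 and 5.58 TPM, and Ckm, which defines mature muscle, had 0.04 and 0 TPM.

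**Figure D2:**
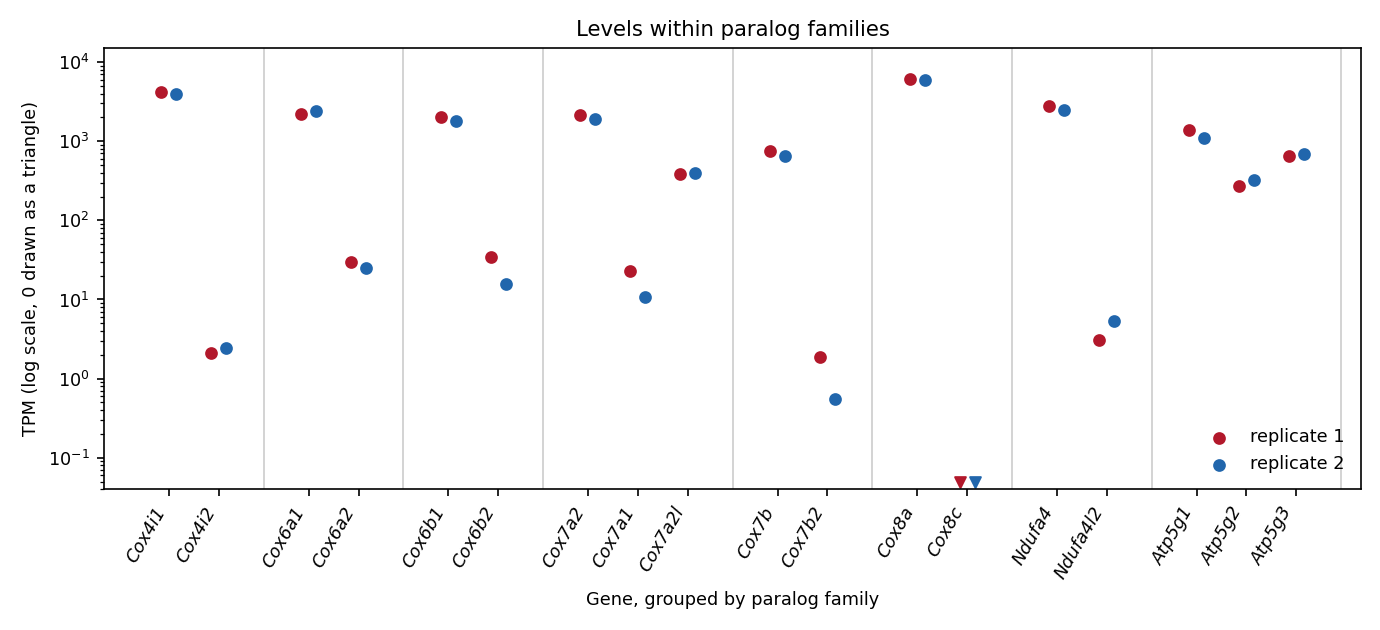
TPM (log axis, 0 as a triangle) of each gene of the 8 paralog families, replicate 1 left of replicate 2. In the pairs Cox4i, Cox6a, Cox6b, Cox7b, Cox8 and Ndufa4, the first gene lies 59.9-fold or more above the second where the second was detected, and the 3 Atp5g genes lie within 5.12-fold of each other. Cox8b, outside the rule, is not drawn.

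The c ring of ATP synthase, the rotor that protons turn, is built from 1 protein encoded by 3 genes. All 3 genes were abundant. Atp5g1 had 1380 TPM in replicate 1 and 1108 in replicate 2, Atp5g3 had 653 and 688 TPM, and Atp5g2 had 269 and 321 TPM. Atp5g1 held 59.9% and 52.3% of the family, the widest gap between the libraries among the leading paralogs. The value of Atp5g2 (chr15:102662864-102672352) is uncertain, because Gm10175, a transcribed processed pseudogene on chr7:23946646-23947290, has no run of 31 bases that is not also in an Atp5g2 transcript. Gm10175 was given 4586 and 5605 reads, against 4468 and 5232 reads for Atp5g2. With the pseudogene's TPM added, Atp5g2 would be 24.7% ± 3.83 of the family in place of 13.4% ± 2.44, and Atp5g1 48.9% ± 5.78 in place of 56.1% ± 5.38. The second program, which gave 144 and 158 TPM to Atp5g2 and 341 and 380 TPM to Gm10175, divided these reads differently. Atp5g2 was the member with the largest gap between the programs, at a log2 of -0.96 (second over first, mean of the libraries).

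Ndufb4, an accessory subunit of complex I (chr16:37647170-37654453), met the same problem. Its 202 and 185 TPM made it one of the lowest accessory subunits. Ndufb4c, a processed pseudogene on chr15:73809507-73809896 that also shares every run of 31 bases with an Ndufb4 transcript, held 882 and 803 TPM. Together the loci summed to 1084 and 987 TPM. Of all members, 18 had another gene that shared at least 50% of such runs. In Atp5g2 and Ndufb4 that gene held 10% or more of the member's reads in both libraries. In 32 members the expected count was more than 0.005 from a whole number in either library, as it is where reads are divided among loci or genes. For the counts of 18 and 32 members the share over all genes is not given, so they describe the members only.

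Between the libraries the members differed little. Of 89 members with a mean of at least 50 expected reads, 2 were past a 2-fold ratio (absolute log2 of 1), or 2.25%, against 2.42% of the 14078 genes compared. Both were higher in replicate 1, as were 1.98% of all genes, and 0 were lower, against 0.433%. At an absolute log2 of 0.5 the count was 3 members, or 3.37%, against 10.5% of all genes. Of these, 2 were higher in replicate 1 and 1 was lower, against 7.12% and 3.40% of all genes. Cox8b, which the rule leaves out by name, is in none of these counts. It had 644 expected reads in replicate 1 and 14 in replicate 2, a wider gap than that of any member counted here. The median absolute log2 ratio was 0.08 for members, 0.16 for all genes compared and 0.11 for the 1470 genes with at least 100 TPM. Members were higher in replicate 1 in 62 of 89 cases (69.7%), against 49.1% of all genes. The median log2 ratio was 0.05 over members and 0.00 over all genes. The sign was positive in 47 of 65 members under 1000 bases and in 15 of 24 longer ones. Per complex, 27 of 36 subunits of complex I, 4 of 4 of complex II, 6 of 8 of complex III, 10 of 16 of complex IV and 10 of 16 of complex V were higher in replicate 1. These shifts are small in size: the middle part of the members, from the lower to the upper quartile, spanned log2 ratios of -0.01 to 0.13.

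**Figure D3:**
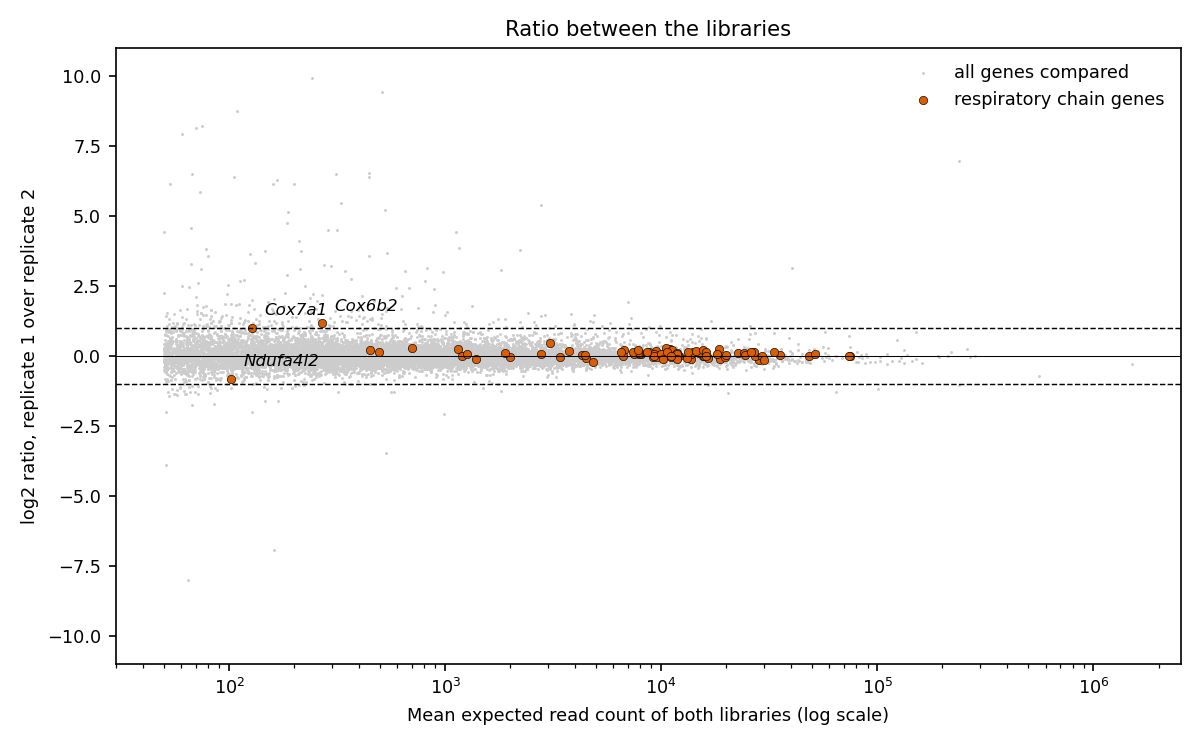
Log2 ratio of replicate 1 over replicate 2 against mean expected reads (log axis) for all 14078 genes compared (grey) and the 89 members (orange); dashed lines mark 2-fold. Members with many reads lie near 0, and Cox6b2, Cox7a1 and Ndufa4l2, with 73 to 372 reads a library, lie furthest from it.

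The 3 members past a log2 of 0.5 were all low paralogs of complex IV. Cox6b2 (chr7:4751792-4753094) had 372 reads in replicate 1 and 167 reads in replicate 2, a log2 ratio of 1.16 with a 95% interval of 0.90 to 1.44 from counting alone. Cox7a1 (chr7:30184144-30186078) had 170 and 85 reads, a log2 ratio of 1.00 (0.62 to 1.40). Ndufa4l2 (chr10:127514967-127517154) went the other way, with 73 and 130 reads and a log2 ratio of -0.82 (-1.26 to -0.40). Cox7a1 lies at the 2-fold limit, and its call was lost under DESeq2's size factors, a prior count of 2 and the second program. The choroid plexus markers were 2-fold or more higher in replicate 1 in 8 of 8 cases, with a median log2 ratio of 4.92, while the 8 mural cell markers, of vessel walls, were all lower, with a median of -0.35. Other lists also went 1 way. The 4 ependyma markers were all higher (median 0.38), and the 4 of excitatory neurons and 5 of microglia all lower (-0.22 and -0.10). Those of interneurons, astrocytes, oligodendrocytes and endothelium went both ways. The part of these cells in the 3 ratios was not tested. Ndufa4l2 also overlaps Shmt2 on the opposite strand, which had 762 and 894 reads.

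The promoters of the members were compared with those of all genes, since factors such as NRF1 and GABPA are known to drive nuclear genes of the respiratory chain. RefSeq sequences (GRCm38.p6, 250 bases before to 50 bases after the start) were matched by symbol for 73 of the 92 symbols, in 78 promoters. These 4 promoters were chosen to show the NRF1 letters in the 2 most abundant members that hold them, Cox5b and Cox6a1, and to set Cox6b1 beside its low paralog Cox6b2. Capitals mark matches to GCGCATG (NRF1), CCGGAAG (ETS factors such as GABPA), GGGCGG (Sp1) and ATGGCGG (YY1), on either strand. Cox5b is at chr1:36691237-36691536 on the plus strand. On the minus strand are Cox6a1 at chr5:115348909-115349208, Cox6b1 at chr7:30626065-30626364 and Cox6b2 at chr7:4753045-4753344.
Cox5b: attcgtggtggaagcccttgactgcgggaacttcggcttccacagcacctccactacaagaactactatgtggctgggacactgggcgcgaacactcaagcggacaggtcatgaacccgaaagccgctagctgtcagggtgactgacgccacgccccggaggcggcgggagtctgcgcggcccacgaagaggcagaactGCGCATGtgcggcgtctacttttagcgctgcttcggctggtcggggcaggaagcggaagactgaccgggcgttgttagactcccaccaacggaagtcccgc
Cox6a1: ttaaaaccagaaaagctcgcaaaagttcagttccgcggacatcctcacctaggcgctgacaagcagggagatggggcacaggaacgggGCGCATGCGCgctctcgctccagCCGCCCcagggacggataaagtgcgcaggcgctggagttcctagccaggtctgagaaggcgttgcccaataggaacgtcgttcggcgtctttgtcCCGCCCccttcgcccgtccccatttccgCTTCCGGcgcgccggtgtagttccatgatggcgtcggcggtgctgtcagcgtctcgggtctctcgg
Cox6b1: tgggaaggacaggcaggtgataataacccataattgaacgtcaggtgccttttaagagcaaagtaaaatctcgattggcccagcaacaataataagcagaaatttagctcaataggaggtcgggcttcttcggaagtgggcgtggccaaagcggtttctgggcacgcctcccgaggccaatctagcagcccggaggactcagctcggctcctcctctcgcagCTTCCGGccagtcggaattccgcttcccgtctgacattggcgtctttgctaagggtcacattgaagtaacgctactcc
Cox6b2: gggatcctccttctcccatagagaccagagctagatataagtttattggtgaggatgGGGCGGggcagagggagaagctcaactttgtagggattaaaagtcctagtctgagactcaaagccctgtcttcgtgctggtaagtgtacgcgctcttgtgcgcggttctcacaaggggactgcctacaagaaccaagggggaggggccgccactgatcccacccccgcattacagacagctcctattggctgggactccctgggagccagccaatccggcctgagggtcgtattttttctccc

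The NRF1 letters were in 15 member promoters (19.2%), against 3.91% of all 32851 promoters and 4.80% of the 21263 of protein-coding genes. The genes were Cox5b, Cox6a1, Atp5k, Atp5l, Uqcr11, Ndufb8, Ndufa11, Ndufa6, Uqcrc1, Ndufb6, Sdhb, Ndufa8, Atp5g2, Ndufaf5 and Ndufaf4, which span all 5 complexes. Cox6a1 held 2 such matches, 1 on each strand, that overlap each other. The ETS letters were in 18 (23.1%, against 8.86% and 11.6%) and the YY1 letters in 13 (16.7%, against 4.05% and 5.25%). The letters of Sp1 were in 34 (43.6%), between the 35.7% of all and the 46.2% of coding promoters. TATAAA was in 7 (8.97%), against 13.6% and 12.6%, and AAGGTCA, the site of ERR receptors, was in 8 (10.3%), against 4.72% and 4.08%. The median GC content was 58.0% in member promoters, 52.7% in all and 56.3% in coding ones. No motif contains another, though the ends of several can share bases, such as NRF1 with YY1 or ETS with Sp1. Matches are a description of letters, not of bound sites. Cox6b1, the broadly expressed paralog, held 1 ETS match, and Cox6b2 held 1 Sp1 match.

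**Figure D4:**
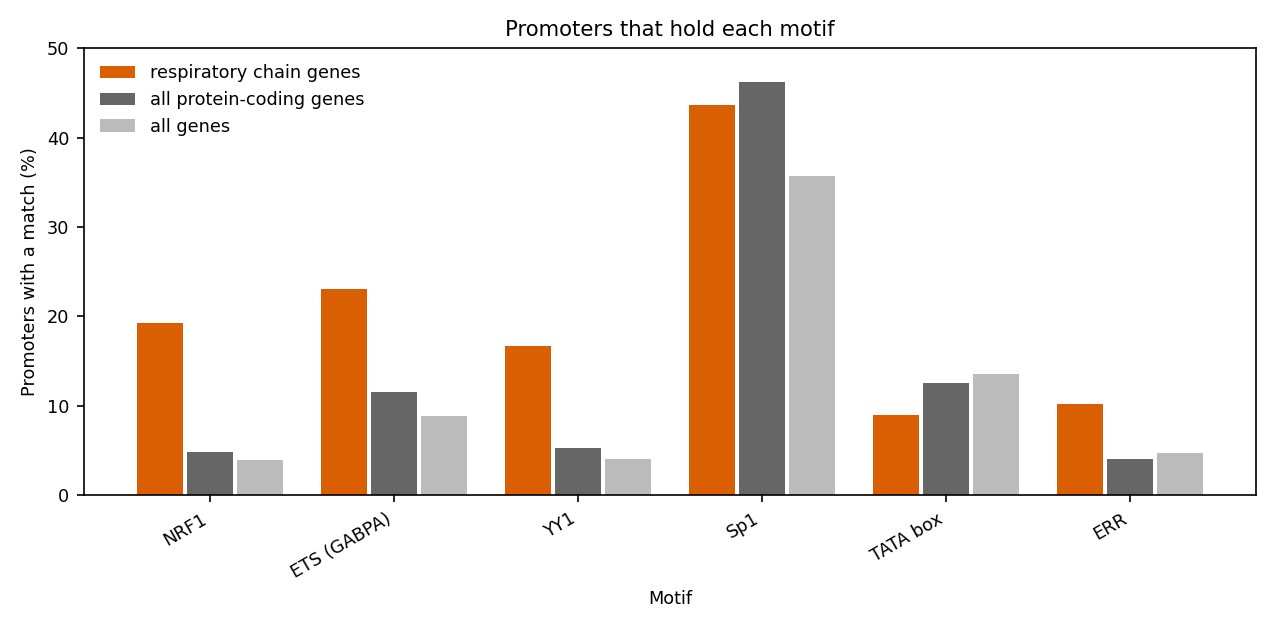
Share of promoters with each motif on either strand (bars from 0, in %), for the 78 member promoters, the 21263 promoters of protein-coding genes and all 32851. The member bar is the tallest of its 3 for NRF1 (19.2%), ETS (23.1%), YY1 (16.7%) and ERR (10.3%), but not for Sp1 or the TATA box.

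Transcript tables showed which isoforms carried these levels. A transcript annotated protein_coding carried 88.0% ± 0.0273 (SD, n = 2) of the members' TPM in the first program. Processed transcripts without an open reading frame carried 6.64% ± 0.0918, retained-intron transcripts 3.12% ± 0.0600 and targets of nonsense-mediated decay 2.24% ± 0.00456. Of 79 members with several transcripts and at least 5 TPM, 73 had the same leading transcript in both libraries, and 6 did not, Atp5j, Atp5s, Ndufaf1, Ndufaf3 and Ndufaf4 among them. No share over all genes is given for that count.

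In 7 of the 79 members, under 50% of the TPM lay on coding transcripts in both libraries, against 9.00% of all such genes: Cox5b, Ndufa3, Ndufa5, Ndufa10, Ndufab1, Ndufaf8 and Ndufs4. In the same 7 the leading transcript was not a coding one, against 9.18% of all such genes. In the second program the leading transcript was not a coding one in 8 members, the 7 and Cox7b, against 9.81%. There 6 members had under 50% of the TPM on coding transcripts, with Cox7b and without Ndufa5 and Ndufaf8. Only 5 members were under 50% in both programs. No share over all genes is given for these last counts. In Ndufa3 the decay target Ndufa3-204 had 74.9% in replicate 1 and 73.0% in replicate 2, and the coding share was 24.4% and 26.3%. In Ndufa5 the processed transcript Ndufa5-204 had 70.9% and 72.9% in the first program, while the coding share in the second was 51.9% and 49.1%. In Cox5b the processed transcript Cox5b-205, of 362 bases, had 61.2% and 60.4%, against 37.8% and 38.3% for the coding Cox5b-204, of 865 bases. In Ndufab1, which is also the mitochondrial acyl carrier protein, retained-intron transcripts led, with 42.2% and 40.2% for Ndufab1-205. By expected reads, which unlike TPM are not divided by length, Cox5b had 67.6% and 67.5% on coding transcripts. Ndufa3, Ndufa5 and Ndufc1 were under 50% by reads.

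**Figure D5:**
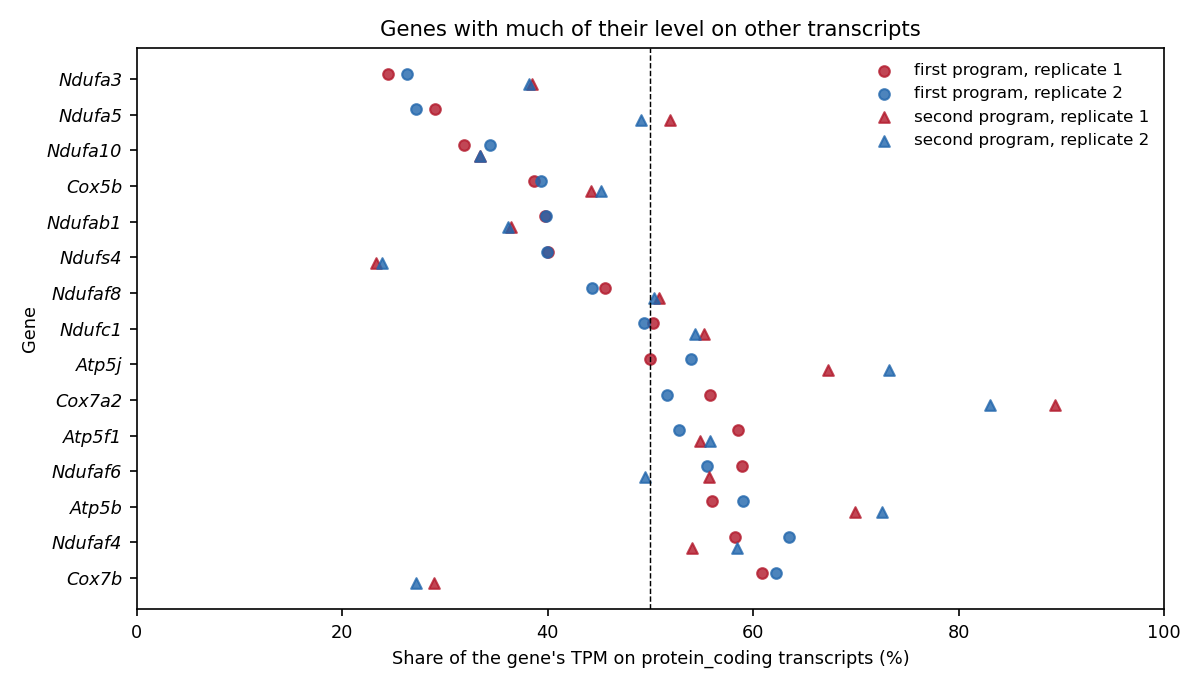
Share of each gene's TPM on protein_coding transcripts (%) for 15 members under 60% in either program (mean of the libraries); circles are the first program, triangles the second, and the dashed line marks 50%. Library pairs lie close together, while Cox7b shows 60.9% and 62.2% in the first program against 28.9% and 27.2% in the second.

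Only Cox7b had a different leading transcript in the programs in both libraries, 1 of 79 members, against 5.21% of all such genes. Its coding Cox7b-201 had 60.9% and 62.2% of the gene's TPM in the first program and 28.9% and 27.2% in the second. The second program placed 37.4% and 39.2% on Cox7b-202, a processed transcript of 180 bases to which the first gave 1.36% and 0.285%. Cox7b was also the sole member with a higher TPM in the second program in both libraries. No member differed 2-fold between programs in both, and 84 of 90 were lower in the second. Their median log2 of second over first was -0.25 in replicate 1 and -0.31 in replicate 2, near the -0.22 and -0.27 of all 13787 genes with at least 1 TPM.

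Splicing choices could be read for Atp5c1 and Ndufv3, and the sequences at each choice show what is exchanged. The gamma subunit Atp5c1 has a cassette exon of 37 bases (chr2:10056770-10056806, mm10, minus strand) that is known to be skipped in heart and skeletal muscle. The last coding bases are shown with the common exon in lower case and the alternative end, stop codon included, in capitals.
Atp5c1-203: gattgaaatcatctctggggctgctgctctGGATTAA
Atp5c1-201: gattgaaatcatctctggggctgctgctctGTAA

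Shares were taken over the summed TPM of Atp5c1-201, Atp5c1-202 and Atp5c1-203. Transcripts with the exon (Atp5c1-202 and Atp5c1-203) held 90.7% of it in replicate 1 and 89.0% in replicate 2, or 89.9% ± 1.21 (SD, n = 2). The second program gave 94.2% and 93.7%. The muscle form, without the exon, was thus the smaller part in both libraries and programs.

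Ndufv3, an accessory subunit of the NADH module, has a cassette exon of 1092 bases (chr17:31527310-31528401, plus strand) that gives a long form of the protein. The coding bases at the junction are shown, with the common exon in lower case and the next exon in capitals: the cassette exon in Ndufv3-201 and the following one in Ndufv3-202.
Ndufv3-201: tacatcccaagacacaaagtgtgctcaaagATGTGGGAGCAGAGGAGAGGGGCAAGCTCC
Ndufv3-202: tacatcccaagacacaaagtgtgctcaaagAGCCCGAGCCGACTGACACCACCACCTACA

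Shares were taken over Ndufv3-201 and Ndufv3-202 alone. The long form held 2.43% of their TPM in replicate 1 and 2.97% in replicate 2, or 2.70% ± 0.380 (SD, n = 2). By expected reads its share was 9.43% and 11.1%. The second program gave 2.22% and 2.75% by TPM. The short form held the larger part by each of these 3 measures.

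Some members overlap a neighbour. In 33 members an exon overlaps an exon of another gene, on the opposite strand in 29 and on the same strand in 6. In 11 of them the other gene had over 10% of the member's reads in both libraries. The share over all genes is not given for these counts, so they describe the members only. Ndufs1 had 7678 and 7104 reads, against 9457 and 10290 for Eef1b2, and Ndufb2 had 8256 and 7863 reads, against 6231 and 3877 for Braf. The labels do not state whether the counting used the strand, so reads of overlapping genes may be mixed.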

How the data were processed

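Polyadenylated RNA of hippocampus was measured in 1 group of 2 libraries. Per the file headers, each deposited table of genes gives an expected count of reads (not always whole) with the TPM and FPKM derived from it by scaling for length and depth. The authors also deposited transcript tables from a second program, with an estimated count and TPM. The column layouts are those of RSEM and kallisto, on mm10 with the M21 annotation, while program names and versions are not given in these sources. Rows that name no gene (26248 named by a number and 97 others) held 2.31e-05% and 1.64e-05% of the reads and stayed out.

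The members and lists were chosen with earlier results of these data known. Values named are the 3 highest and the lowest core subunit of each complex, all paralogs, the assembly factors, members past a log2 of 0.5, program differences and the 3 highest of each partner list. One named gene is not reported here. Other values were picked after they were seen. Ratios are replicate 1 over replicate 2, with TMM factors of 1.005 and 0.995 (edgeR 4.0.16, R 4.3.3), a prior count of 0.5 and a mean expected count of at least 50. They were tested on simulated data. Promoters were searched for fixed letters on both strands; a longer NRF1 form searched first is not reported. Other steps used Python 3.11.15. Reads carry no stated molecular identifiers, so intervals (exact binomial, 95%) cover counting error only.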

Additional observations from a re-analysis of the deposited data

How the results depend on the processing

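No paired analysis was possible because the series has 1 group. The count of 2 members past 2-fold was 1 with DESeq2 (1.42.0) size factors, 1 with a prior count of 2, 1 in the second program and 4 with no count minimum beyond 1 read. It cannot be formed from 1 library. The 7.67% share of TPM was 8.57% without mitochondrially encoded genes, 3.17% of expected counts and 6.40% in the second program. Medians of complexes I to V were 646.9, 233.2, 753.1, 1177 and 1062 without mitochondrially encoded genes, 454.4, 163.8, 529.0, 826.6 and 745.9 as FPKM, and 475.6, 164.6, 595.8, 1013 and 809.6 TPM in the second program. Over members with at least 1 TPM in both libraries, complex IV had 1920 TPM. The paralog share of Cox4i1 was 99.93% and that of Cox7a2 81.96% in the second program. By expected counts Cox6a1 had 98.51%, Cox7a2 70.5% and Ndufa4 99.69%. With Gm10175 added, Atp5g1 had 48.85%, an alternative chosen after seeing the data, as were those on coding shares and on the place of Ndufa4. The 1 member with another leading transcript in the second program became 0 among coding transcripts, 2 by estimated counts and 3 in either library alone. The 7 members under 50% coding became 3 by expected counts. The cause of these moves was not tested. Other results and settings stayed within the spread between the libraries, or within 1.5 times for counts. Depth limits the low paralogs, with 0 to 483 reads a library, and not the abundant subunits.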

Other observations

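Genes outside the members carry related names. Cox8b, the heart and skeletal muscle form of subunit 8, had 100.5 TPM in replicate 1 and 2.05 in replicate 2, from 644 and 14 reads. Another 13 genes with a member's name stem have no coding transcript, and together they held 14755 and 13789 reads. Ndufb1-ps, annotated as a noncoding RNA on chr12:101968090-101977068, had 511 and 447 TPM, at the level of the middle of complex I. Copies annotated as pseudogenes, 25 in all for 16 members, held 13669 and 14577 reads. Apart from Ndufb4c and Gm10175, the copy with the highest TPM was Gm12338, a copy of Cox7c, with 355 and 344 TPM, and Cox7c itself had 2396 and 2353 TPM. Within the mitochondrially encoded list, mt-Nd4l had 161 and 63.6 reads, a log2 ratio of 1.34. It was the 1 of 13 genes past 2-fold, against 2.42% of all 14078 genes compared.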
